A study of Mus musculus with 37 samples.

Results

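The genes described here are 9 members of the β-adrenergic pathway of brown fat, measured across a panel of mouse strains. They are the receptors *Adrb1* and *Adrb3*, the adenylyl cyclase *Adcy3*, the protein kinase A (PKA) subunits *Prkaca*, *Prkar1a*, *Prkar2a* and *Prkar2b*, and the phosphodiesterases *Pde3b* and *Pde4d*, out of 24657 gene symbols on the array. Each was chosen by its symbol. For *Prkaca* and *Dio2*, with 2 probe sets each, the one with the higher mean over the BXD strains was used. *Ucp1* and *Dio2* served as readouts.

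Transcripts were measured in brown adipose tissue (BAT) of 35 BXD strains and of C57BL/6J and DBA/2J, the inbred strains from which the BXD lines were bred, so that each BXD line is homozygous for a fixed mixture of both parental genomes. All groups were male mice on the same chow, fasted overnight and sacrificed at 29 weeks. The labels name no cold exposure and no drug. RNA of about 5 mice of a strain was pooled in even amounts and hybridised to 1 Affymetrix MoGene 2.0 array, 37 arrays in all, so that a value is a strain pool and no strain has a replicate. Values are in units to which the authors rescaled every array (mean 8, standard deviation 2), and a fold given from a difference is nominal, since it treats 1 unit as 1 doubling.

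In BAT, noradrenaline released by sympathetic nerves binds β-adrenergic receptors that couple through the stimulatory G protein to adenylyl cyclase. The cAMP formed releases the catalytic subunits of PKA from their regulatory subunits, and phosphodiesterases end the signal by cleaving cAMP. PKA drives lipolysis and the transcription of thermogenic genes, among them *Ucp1*, which encodes the protein that uncouples respiration from ATP synthesis, and *Dio2*, which encodes the deiodinase that makes active thyroid hormone inside the cell.

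The tissue label was checked against 10 markers of brown adipocytes, and all 10 were above background in the mean of the strains. Background was taken as the 95th percentile of the means of 1128 probe sets for olfactory receptors, 7.94 units, and 47.2% of all probe sets exceeded it. Transcripts of other tissues were present in varying amounts. The mean of 12 skeletal muscle genes, all 12 above background, ran from 9.54 in BXD65 to 13.34 in BXD97. That of 10 liver genes, of which 3 were above background, had a median of 6.92 but reached 11.95 in BXD70 and 10.05 in DBA/2J. Of 6 genes of sympathetic nerve, 2 were above background.

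PKA acts on transcription mainly through CREB, which binds the cAMP response element TGACGTCA and, less firmly, its core TGACG. To show how far the members and readouts carry these letters near a start of transcription, the 250 bases before annotated starts were searched on both strands in RefSeq sequences of GRCm38.p6. The whole element, which reads the same on both strands, was in 508 of 32851 such windows (1.55%), and at least 1 core, counted also inside a whole element, was in 17.8%. Windows were given for 7 of the 9 members, all but *Adrb3* and *Pde3b*. Those printed belong to both readouts, to the 3 members with a window that covaried with *Ucp1* below, and to *Prkar1a*, the only one of the 7 with a whole element. They run 5′ to 3′ in the direction of the gene, and capitals mark the element or its core.
*Ucp1*, chr8:83290098-83290347, plus strand: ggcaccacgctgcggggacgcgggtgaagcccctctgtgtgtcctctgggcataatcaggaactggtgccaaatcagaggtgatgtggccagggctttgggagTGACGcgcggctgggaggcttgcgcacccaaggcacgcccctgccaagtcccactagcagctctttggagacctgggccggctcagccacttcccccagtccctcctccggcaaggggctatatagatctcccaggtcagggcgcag
*Dio2*, chr12:90739039-90739288, minus strand: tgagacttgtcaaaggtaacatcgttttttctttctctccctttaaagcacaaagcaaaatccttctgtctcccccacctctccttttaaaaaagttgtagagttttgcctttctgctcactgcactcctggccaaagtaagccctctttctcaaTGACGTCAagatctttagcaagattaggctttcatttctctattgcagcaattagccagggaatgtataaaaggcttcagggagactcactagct
*Adrb1*, chr19:56721867-56722116, plus strand: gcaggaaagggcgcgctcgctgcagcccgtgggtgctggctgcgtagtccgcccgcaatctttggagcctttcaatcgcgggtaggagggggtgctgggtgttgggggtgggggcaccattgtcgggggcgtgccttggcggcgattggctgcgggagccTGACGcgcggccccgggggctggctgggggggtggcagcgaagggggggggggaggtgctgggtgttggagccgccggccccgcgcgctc
*Adcy3*, chr12:4133147-4133396, plus strand: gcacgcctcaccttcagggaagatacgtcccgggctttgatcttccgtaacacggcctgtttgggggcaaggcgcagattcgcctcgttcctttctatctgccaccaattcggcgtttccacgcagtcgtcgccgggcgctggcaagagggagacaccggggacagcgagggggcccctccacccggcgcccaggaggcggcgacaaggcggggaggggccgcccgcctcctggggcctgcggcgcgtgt
*Prkar2b*, chr12:32061278-32061527, minus strand: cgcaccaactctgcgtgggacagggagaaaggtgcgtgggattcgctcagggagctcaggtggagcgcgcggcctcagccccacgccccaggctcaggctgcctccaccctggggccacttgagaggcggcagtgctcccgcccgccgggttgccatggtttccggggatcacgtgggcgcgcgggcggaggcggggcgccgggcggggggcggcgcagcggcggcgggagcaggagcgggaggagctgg
*Prkar1a*, chr11:109650699-109650948, plus strand: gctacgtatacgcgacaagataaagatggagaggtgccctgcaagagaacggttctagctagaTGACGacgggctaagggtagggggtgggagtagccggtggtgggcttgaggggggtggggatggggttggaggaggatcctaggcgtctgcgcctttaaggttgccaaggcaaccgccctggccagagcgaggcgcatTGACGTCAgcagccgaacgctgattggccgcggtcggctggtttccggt
In *Dio2* the whole element began 95 bases before the start, and in *Prkar1a* 49 bases before one of several annotated starts, with a further core at 187. *Ucp1* had a single core at 147 and *Adrb1* a single core at 90. Among members whose windows are not printed, *Prkaca* had 2 cores in 1 window, and it did not covary with *Ucp1* below. Thus 3 members had a core outside a whole element in at least 1 window, *Adrb1*, *Prkar1a* and *Prkaca*. The letters did not occur in the windows of *Adcy3* and *Prkar2b*, which says nothing of the rest of these genes. A match in a sequence is a description and not a measured binding site.

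All 9 members were above background in the mean of the 35 strains. For 8 of them every strain was above the limit, and for *Pde4d*, at a mean of 7.95 ± 0.15 (SD, n = 35), only 20 strains were. The members differed in how far strains spread (see the plot of values around each gene's median). From the lowest to the highest strain, 4 of 9 spanned at least 0.807 units, the fold that the study took as a minimum range, put on a log2 scale. These were *Adcy3*, *Adrb3*, *Prkar2a* and *Adrb1*. The same held for 60.7% of all probe sets and for 52.2% of those above background. The median SD of the members was 0.203 units and that of all probe sets 0.207. As there was 1 array per strain, strains next to each other in the order of a gene could not be told apart.

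**Figure D1:**
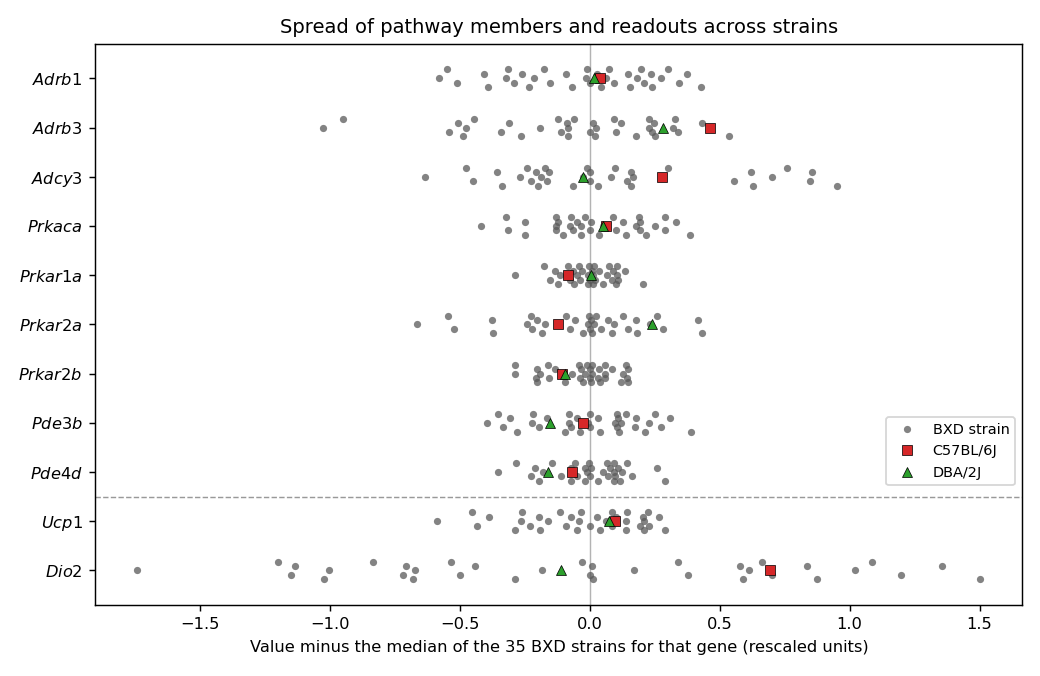
Spread of each gene across strains. The horizontal axis is the value of a strain minus the median of the 35 BXD strains for that gene, in rescaled units, with 1 row per gene; grey points are BXD strains, squares C57BL/6J and triangles DBA/2J. *Dio2* spans 3.25 units, *Adcy3* 1.59 and *Prkar2b* 0.44, and both parents lie near the upper end of *Adrb3*.

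The receptors came first in the order of the pathway. *Adrb3* encodes the β3 receptor, the form typical of adipocytes. It was lowest in BXD83 (10.93), had a median of 11.96 and was highest in BXD66 (12.49), a nominal range of 2.95-fold. BXD83 and BXD49 (11.01) lay apart from the rest, with 0.41 units between BXD49 and the next strain. C57BL/6J (12.42) and DBA/2J (12.24) were both near the top of the panel: 30 of 35 BXD strains were below both parents and 1 was above both. *Adrb1*, the β1 receptor, ran from 9.14 in BXD99 through a median of 9.72 to 10.15 in BXD65, and its parents, at 9.76 and 9.74, sat in the middle. *Adrb1* and *Adrb3* had r = 0.42 (permutation p = 0.0112, rho = 0.50 with p = 0.00255, and r = 0.43 without the 2 strains farthest in *Adrb1*), which did not pass in either fit over all probe sets (limma adjusted p = 0.189 and 0.373). BXD49 was second highest in *Adrb1* (10.09) and second lowest in *Adrb3*, and without it r was 0.61 and the pair passed in 1 of the 2 fits (adjusted p = 0.0316 and 0.0995), so that it was not called.

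*Adcy3* encodes an adenylyl cyclase of the plasma membrane. It was lowest in BXD69 (11.12), had a median of 11.76 and was highest in BXD55 (12.71), with an SD of 0.42 that was larger than that of 91.8% of probe sets above background. Its values had a gap of 0.25 units between BXD98 (12.06) and BXD51 (12.31), with 27 strains below it and 8 above, namely BXD51, BXD81, BXD45, BXD70, BXD87, BXD62, BXD90 and BXD55. Both parents, C57BL/6J at 12.03 and DBA/2J at 11.73, were below the gap.

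Of the PKA subunits, *Prkaca*, the main catalytic subunit, ran from 12.24 in BXD61 through 12.66 to 13.05 in BXD87. *Prkar1a*, regulatory subunit RIα, ran from 9.85 in BXD56 through 10.14 to 10.34 in BXD85 and had the smallest SD of the 9 members, 0.10. *Prkar2b*, regulatory subunit RIIβ, which is the form abundant in fat, ran from 13.79 in BXD56 through 14.08 to 14.23 in BXD75. *Prkar2a*, the more widely expressed RIIα, ran from 9.16 in BXD66 through 9.82 to 10.26 in BXD97. Thus the regulatory subunits differed in spread, with SDs of 0.10, 0.12 and 0.25 for *Prkar1a*, *Prkar2b* and *Prkar2a* (n = 35 each). For *Prkar2b*, 25 of 35 strains were above both parents, which were at 13.98 each.

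The phosphodiesterases were *Pde3b*, a fat enzyme through which insulin lowers cAMP, and *Pde4d*, a cAMP-specific enzyme. *Pde3b* ran from 12.92 in BXD84 through 13.31 to 13.70 in BXD75. *Pde4d* ran from 7.60 in BXD80 through 7.96 to 8.25 in BXD62, close to the background limit throughout, so that its differences between strains carried little signal.

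Between the parents, *Prkar2a* had the largest difference of the members, 0.36 units higher in DBA/2J (10.06 against 9.70), followed by *Adcy3*, 0.30 higher in C57BL/6J. None of the 9 members was past 0.77 units, the 95th percentile of the absolute parental difference, which 5% of all probe sets exceed by construction. The median absolute difference was 0.091 units for the members and 0.182 for all probe sets, with 3 members higher in DBA/2J and 6 lower. With 1 array per parent these differences have no replicate check.

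The readouts differed in spread. *Ucp1* was lowest in BXD84 (14.82), had a median of 15.41 and was highest in BXD87 (15.69), a nominal range of 1.83-fold close to the top of the scale, where arrays had their maxima between 16.18 and 16.47. *Dio2* was lowest in BXD103 (8.17), had a median of 9.92 and was highest in BXD70 (11.42), a nominal range of 9.49-fold, and its SD of 0.84 exceeded that of 98.9% of probe sets above background. The readouts rose together, with r = 0.72 across the 35 strains (rho = 0.73, permutation p = 1e-05 for both, the smallest that 100000 permutations give), and r = 0.69 without the 2 strains farthest in *Ucp1*. This relation passed in both fits over all probe sets, with limma adjusted p = 0.000508 and 0.00587. Relations with one readout are therefore not independent of those with the other. In bulk tissue, fewer cells of a type and less RNA per cell cannot be told apart.

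Of the 9 members, 4 rose with *Ucp1* across strains, *Adrb1*, *Adrb3*, *Adcy3* and *Prkar2b*, and none fell. In the same limma fit 740 of 41154 probe sets passed (1.8%), 0.892% rising with *Ucp1* and 0.906% falling. All 9 members were above background. Fitted only over probe sets above background, 1144 of 19435 passed, and the same 4 members were called. The median r with *Ucp1* was 0.32 for the members and 0.03 for all probe sets. Members were chosen with earlier results of these data known. The count and the median are therefore a description and not a test of the members as a set.

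For *Adrb1*, r was 0.62 (permutation p = 0.00011, rho = 0.62 with p = 0.0001), and 0.54 without the 2 strains farthest in *Ucp1*, BXD84 and BXD83. The slope was 0.75 ± 0.16 units per unit of *Ucp1* (SE, n = 35, limma adjusted p = 0.0111). *Adrb1* was 9.33 and 9.21 in BXD84 and BXD83, the lowest strains in *Ucp1*, and 9.78 in BXD87, the highest. The call was kept whichever single strain was left out, and was lost without BXD84 and BXD83 together (adjusted p = 0.0791).

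For *Adrb3*, r was 0.58 (permutation p = 0.00031, rho = 0.58 with p = 0.00034), and 0.56 without BXD84 and BXD83. The slope was 0.92 ± 0.22 (SE, adjusted p = 0.0209 by limma). BXD83 was second lowest in *Ucp1* (14.95) and lowest in *Adrb3*, and without it alone the adjusted p was 0.0918, and without BXD84 and BXD83 it was 0.0563. Over the 33 strains above the gap that set BXD83 and BXD49 apart, r was 0.52 (permutation p = 0.00171).

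For *Adcy3*, r was 0.61 (permutation p = 0.00012, rho = 0.62 with p = 0.00012), and also 0.61 without BXD84 and BXD83, where it still passed (adjusted p = 0.0239). The slope was 1.12 ± 0.24 (SE, adjusted p = 0.0111 by limma). All 8 strains above the gap in *Adcy3* had *Ucp1* at or above the panel's median, from 15.41 to 15.69, while the 27 strains below it ran from 14.82 to 15.63. Within the 27 strains r was 0.31 (permutation p = 0.113, rho = 0.34 with p = 0.083) and within the 8 strains 0.49 (exact permutation p = 0.221, rho = 0.44 with p = 0.273). The relation did not pass on either side of the gap alone. Splitting by *Adcy3* itself narrows its range and leaves fewer strains, so this cannot decide whether the relation holds within a side. These subsets of strains were chosen after the values had been seen.

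For *Prkar2b*, r was 0.62 (permutation p = 8e-05, rho = 0.57 with p = 0.00046), and 0.59 without BXD84 and BXD83. The slope was small in units, 0.34 ± 0.08 (SE, adjusted p = 0.025 by limma), as the whole range of *Prkar2b* was 0.44. The call was lost without BXD56, BXD83 or BXD97 alone, with adjusted p up to 0.0628, and without BXD84 and BXD83 together (adjusted p = 0.0774). Quantile normalization and median centring also took *Prkar2b* past the threshold (limma adjusted p = 0.0751 and 0.0524). Muscle transcripts moved with it: the muscle list had r = -0.60 with *Prkar2b* and -0.36 with *Ucp1*, and with the list as a covariate the partial r was 0.54 and the adjusted p 0.094. *Adrb1*, *Adrb3* and *Adcy3* passed with this covariate, at adjusted p = 0.0265, 0.0177 and 0.0196.

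The other 5 members did not pass against *Ucp1*. *Prkar2a* was the only member with a negative r, -0.44 with or without BXD84 and BXD83 (permutation p = 0.00758, rho = -0.40 with p = 0.0197, adjusted p = 0.129). *Pde3b* had r = 0.32 and adjusted p = 0.343, *Prkar1a* r = 0.24 and 0.569, *Prkaca* r = 0.20 and 0.597, and *Pde4d* r = 0.03 and 0.956, all by limma. The 4 called members thus comprise both receptors, the cyclase and 1 regulatory subunit of PKA.

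**Figure D2:**
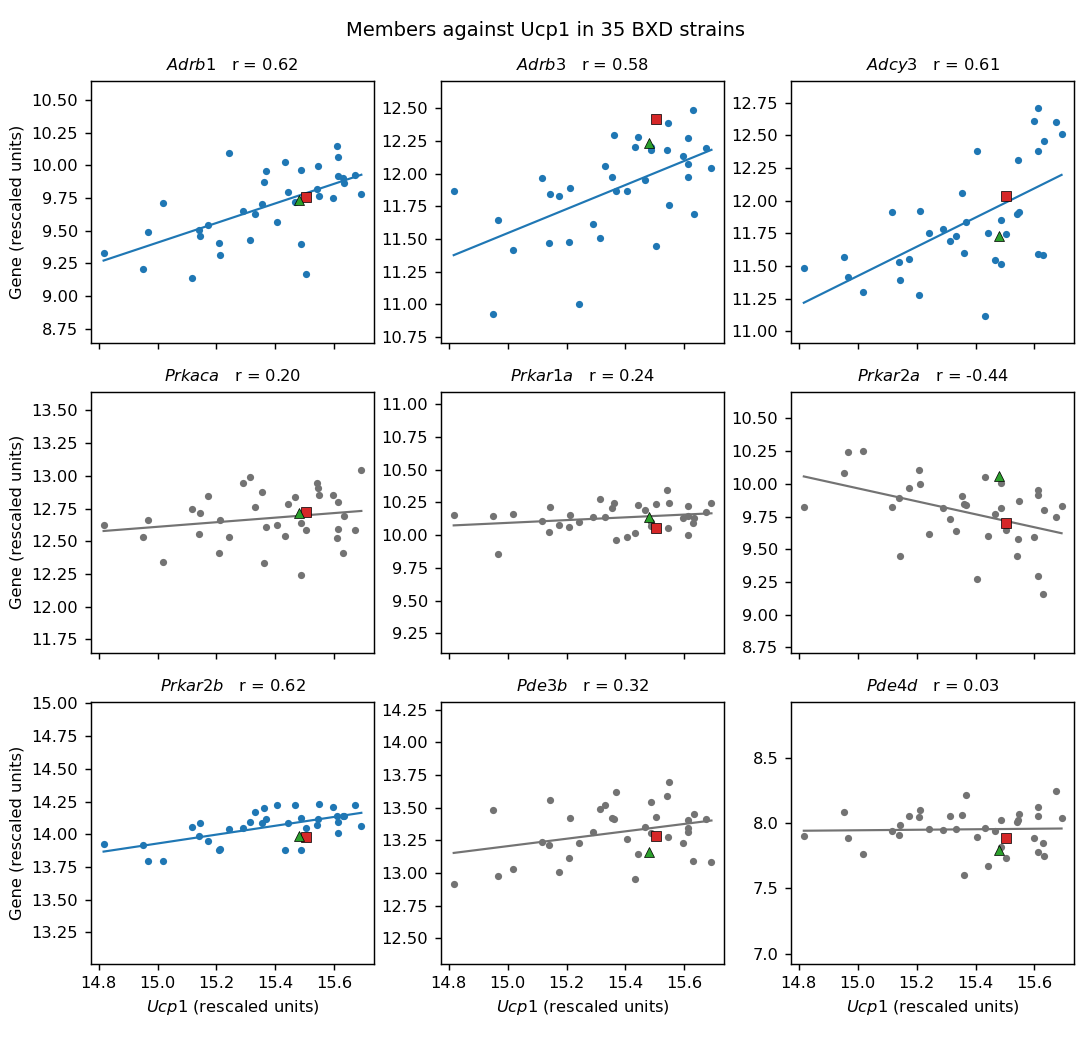
Each member against *Ucp1* in the BXD strains. Both axes are in rescaled units and every panel spans the same height; points are BXD strains, squares C57BL/6J, triangles DBA/2J, lines the limma fit over the 35 BXD strains, and blue marks an adjusted p under 0.05. *Adrb1*, *Adrb3*, *Adcy3* and *Prkar2b* rise with *Ucp1* with r between 0.58 and 0.62. For the probe sets used, *Prkaca* and *Pde4d* have the r nearest to 0, at 0.20 and 0.03.

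Against *Dio2*, no member passed, where 99 of 41153 probe sets did (0.241%). At an unadjusted limma p under 0.05 there were 2 of 9, *Adrb1* (r = 0.49, permutation p = 0.0032, rho = 0.49 with p = 0.00311, adjusted p = 0.135, and r = 0.46 without BXD103 and BXD70) and *Adcy3* (r = 0.48, permutation p = 0.00404, rho = 0.45 with p = 0.00739, adjusted p = 0.137, and r = 0.40 without BXD103 and BXD70). Of all 41153 probe sets, 5028 had an unadjusted limma p under 0.05 in the same fit. The unmoderated Pearson test also called none of the 9 members. The other 7 members had r between -0.15 for *Prkar2a* and 0.28 for *Adrb3*. BXD70, the strain highest in *Dio2*, also carried the most liver transcripts. Of the 10 genes of the liver list, 3 were above background, and the list's median of 6.92 lay below the limit of 7.94. With that limit on its values in most strains, the liver list moved with both readouts. It had r = 0.43 with *Dio2* (permutation p = 0.00167, rho = 0.60 with p = 0.00017, adjusted p = 0.0367 over the 132 relations of 12 marker lists with the 11 genes), and r = 0.50 without BXD70 and BXD66. With *Ucp1* it had r = 0.37 (permutation p = 0.0272, rho = 0.61 with p = 6e-05, adjusted p = 0.327 for r), and r = 0.52 without those strains. Among the members its largest rho was that of *Adrb1*, 0.46 (p = 0.00552), with r = 0.22 (permutation p = 0.208). The part of liver transcripts in the members' relations was not tested. Without BXD70 the count of members called against *Dio2* stayed at 0 and that against *Ucp1* at 4. Whether the members' relations with *Ucp1* and with *Dio2* differ was not tested.

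Among the members themselves, 36 pairs were compared, of which 25 had a positive and 11 a negative r, with a median of 0.16 and 22 of the 36 within 0.3 of 0 (see the matrix of r). A pair was called where both genes passed as covariate for the other. The share of all probe sets that passed was 0.338% for *Adrb1* as covariate, 0.0194% for *Adrb3*, 1.34% for *Adcy3*, 2.11% for *Prkaca*, 1.03% for *Prkar2a* and 1.8% for *Prkar2b*, and 0% for *Prkar1a*, *Pde3b* and *Pde4d*. *Prkar2a* with *Prkar2b* was the single pair called.

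**Figure D3:**
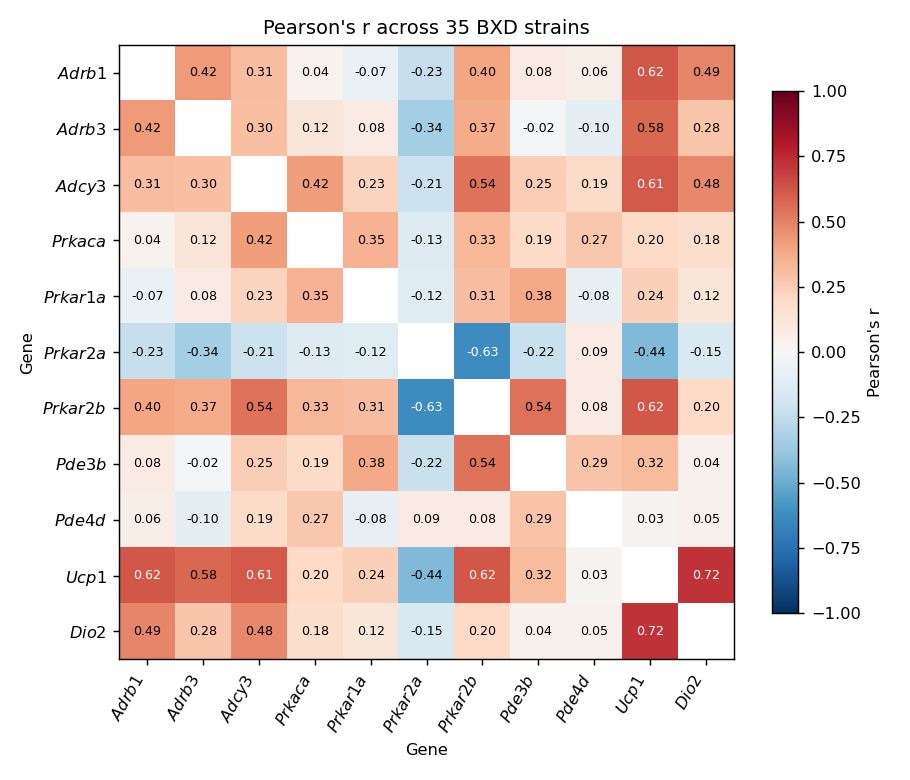
Pearson's r between the 9 members and the readouts over 35 BXD strains. Rows and columns are genes, and colour and printed number give r. The column of *Ucp1* holds 4 members between 0.58 and 0.62, and *Prkar2a* with *Prkar2b*, at -0.63, has the most negative r.

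*Prkar2a* and *Prkar2b* ran against each other, with r = -0.63 (permutation p = 8e-05, rho = -0.58 with p = 0.0004, limma adjusted p = 0.0241 and 0.00623), and r = -0.62 without BXD66 and BXD81. BXD97 was highest in *Prkar2a* (10.26) and at 13.80 second lowest in *Prkar2b*, and BXD56 was second highest in *Prkar2a* (10.24) and lowest in *Prkar2b*. The difference between them within an array, *Prkar2b* minus *Prkar2a*, varied by 1.44 units between BXD97 and BXD66. The call was lost without any one of BXD56, BXD79, BXD81 or BXD97.

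This pair moved with muscle transcripts. The muscle list had r = 0.67 with *Prkar2a* (rho = 0.79, permutation p = 3e-05, adjusted p = 0.0033 over 132 relations) and r = -0.60 with *Prkar2b* (rho = -0.69, permutation p = 0.00018, adjusted p = 0.00792), and r was 0.68 and -0.59 without the 2 strains farthest in the list, BXD65 and BXD95. The difference between the subunits had r = -0.71 with the list (rho = -0.83, permutation p = 1e-05 for both, the smallest possible), and the same r without the 2 strains farthest in it. With the list as a covariate the pair had a partial r of -0.38 and did not pass (adjusted p = 0.644 and 0.507).

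**Figure D4:**
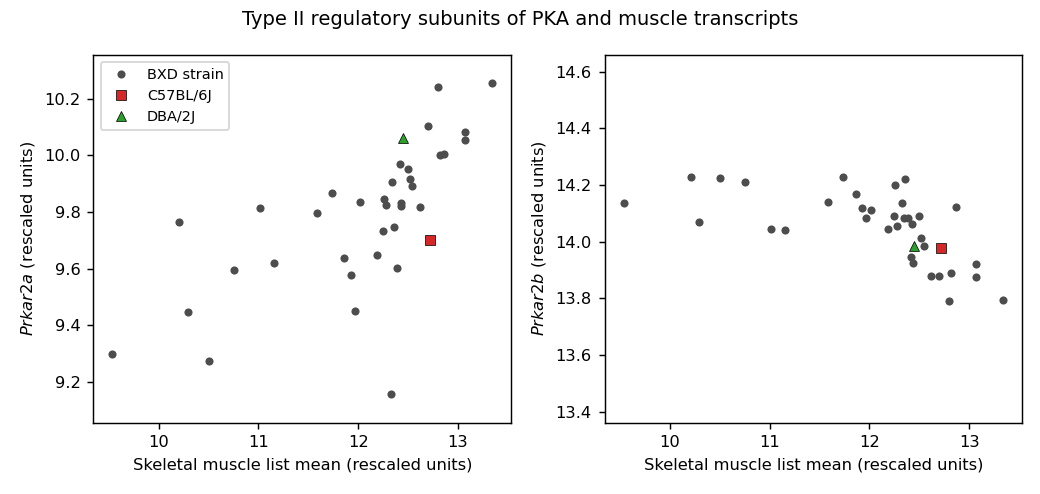
*Prkar2a* (left) and *Prkar2b* (right) against the mean of 12 skeletal muscle genes, all in rescaled units, with the same height of axis in both panels. Points are BXD strains, squares C57BL/6J and triangles DBA/2J. *Prkar2a* is high and *Prkar2b* low in the strains with the most muscle transcripts, with r of 0.67 and -0.60 over the 35 BXD strains.

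A further 2 pairs passed in 1 of their 2 fits. *Prkar2b* with *Adcy3* had r = 0.54 (permutation p = 0.00082, rho = 0.52 with p = 0.0015, adjusted p = 0.0927 and 0.0345), and *Prkar2b* with *Pde3b* had r = 0.54 (permutation p = 0.00076, rho = 0.47 with p = 0.00479, adjusted p = 0.0447 and 0.58). Without BXD95 the first of these passed in both fits. *Prkaca* with *Adcy3*, the next in size, had r = 0.42 (permutation p = 0.0126, rho = 0.46 with p = 0.00609) and did not pass.

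Marker lists of other cell types moved with single members. Each list is an unscaled mean, so that genes with a large spread weigh most in it. *Prkaca* fell as the mean of 6 macrophage genes rose (r = -0.60 with or without BXD61 and BXD48, permutation p = 5e-05, rho = -0.51, adjusted p = 0.0033 over 132 relations), and BXD61, highest in that list at 10.92, was lowest in *Prkaca*. The list was lowest in BXD48 at 9.02, and 5 of its 6 genes were above background. *Prkaca* had r = -0.52 with 7 genes typical of white fat (permutation p = 0.00132, rho = -0.49, adjusted p = 0.0348, and r = -0.50 without BXD43 and BXD61). *Adcy3* rose with the mean of 8 general adipocyte genes (r = 0.57, permutation p = 0.00029, rho = 0.51, adjusted p = 0.00957, and r = 0.61 without BXD92 and BXD65), and with that list as a covariate *Adcy3* still passed against *Ucp1* and also passed against *Dio2*. In the adipocyte list *Retn* and *Cfd* had SDs of 0.68 and 0.60, and the other genes at most 0.17. In the white fat list *Lep* and *Nnat* had SDs of 1.12 and 0.71, and the other genes at most 0.34. The part of these cell types in the members' relations was otherwise not tested.

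The rest of the pathway was described from lists of 70 further genes by role, all 70 found on the array and 60 above background. Against *Ucp1*, 7 of 70 passed, 4 rising and 3 falling, next to the 1.8% of all probe sets. At an unadjusted limma p under 0.05 there were 23 of 70, next to 6478 of 41154 probe sets. The median r of the 70 was 0.07. These lists, too, were written with earlier results of these data known, so the counts are a description.

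Of 9 further cyclases, *Adcy9* (r = -0.66, adjusted p = 0.00394) and *Adcy2* (r = -0.53, adjusted p = 0.0438) fell with *Ucp1*, where *Adcy3* rose. *Adcy9* ran from 10.34 in BXD80 through 10.82 to 11.58 in BXD83, and *Adcy2* from 7.57 in BXD90 through 8.43 to 9.47 in BXD43. The call for *Adcy2* was lost on leaving out any of 16 single strains, and it did not pass with the muscle list as a covariate (adjusted p = 0.162).

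Those that rose were *Gnb1*, a G protein β subunit (r = 0.65, adjusted p = 0.0217), *Plin1*, the lipid droplet protein that PKA phosphorylates (r = 0.61, adjusted p = 0.0308), *Lipe*, hormone-sensitive lipase (r = 0.62, adjusted p = 0.0477), and *Pde4a*, a phosphodiesterase (r = 0.54, adjusted p = 0.0434), all by limma over 35 strains. The call was lost without BXD83 for *Gnb1*, without any of 5 single strains for *Plin1*, 15 for *Pde4a* and 24 for *Lipe*. With the muscle list as a covariate *Gnb1* and *Adcy9* passed, and *Plin1*, *Lipe* and *Pde4a* did not (adjusted p = 0.0609, 0.0783 and 0.103). None of 7 anchoring proteins, 6 genes of receptor desensitization, 5 other PKA subunits and inhibitors or 11 effectors such as *Creb1* passed, the closest being *Rapgef4*, a cAMP-gated exchange factor (r = 0.54, adjusted p = 0.0516).

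Against *Dio2* none of the 70 pathway genes passed by limma or by the unmoderated Pearson test. At an unadjusted limma p under 0.05 there were 14 of 70, next to 5028 of 41153 probe sets. Among these 14 genes were *Gnb1* (r = 0.55, adjusted p = 0.128) and *Pde4a* (r = 0.49, adjusted p = 0.134). Of 10 genes known to be induced by cAMP in this tissue, *Ppargc1a*, the coactivator of mitochondrial biogenesis, passed against both readouts, with r = 0.64 for *Ucp1* (rho = 0.67, adjusted p = 0.00552) and r = 0.74 for *Dio2* (rho = 0.74, adjusted p = 0.00308), and it kept both calls when any 1 strain was left out. The other 9 did not pass against either. *Ppargc1a* was highest in BXD70 (13.26), the strain highest in *Dio2*, and lowest in BXD79 (11.51).

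**Figure D5:**
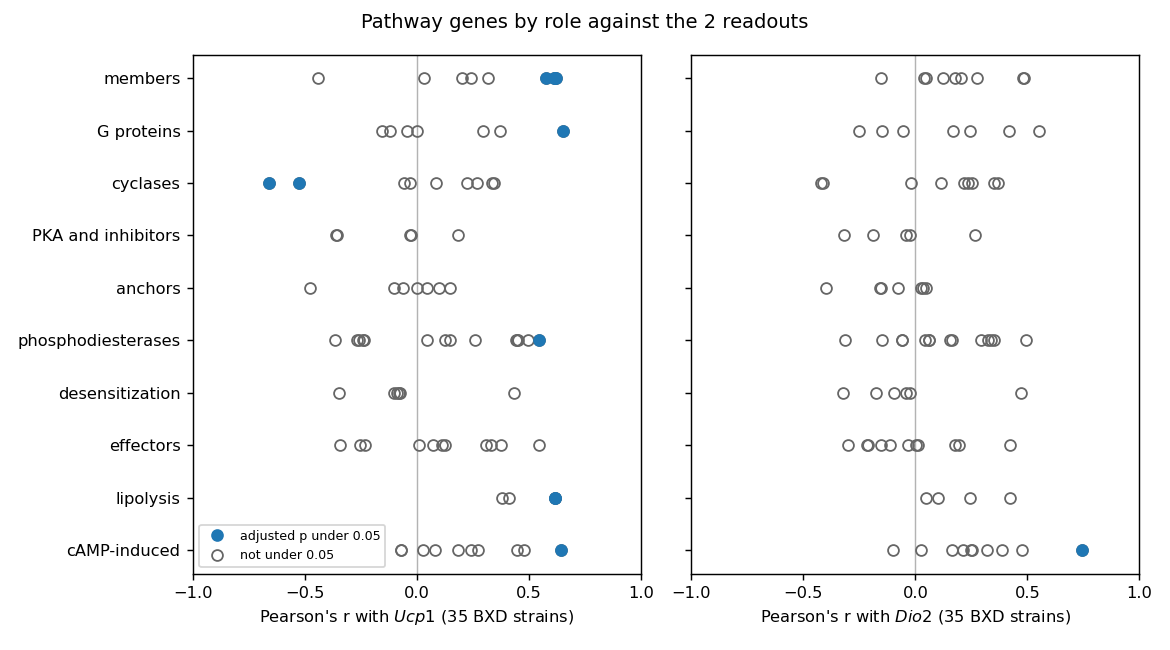
Pearson's r of the members, of other pathway genes by role, from G proteins to lipolysis, and of 10 cAMP-induced genes with *Ucp1* (left) and *Dio2* (right) over 35 BXD strains. Each circle is a gene, and filled circles have an adjusted p under 0.05. Against *Ucp1*, 4 members are filled, with *Gnb1*, *Adcy9*, *Adcy2*, *Pde4a*, *Plin1* and *Lipe*, and against *Dio2* none of these.

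The genes with the most similar pattern to each member, by the size of Pearson's r over the 35 strains among 13523 genes above background, are given as a description. They were 2310001A20Rik (0.84), *Zfp9* (-0.80) and *Dgat1* (0.79) for *Adcy3*, of which *Dgat1* encodes an enzyme of the last step of triglyceride synthesis. For *Adrb1* they were 8430408G22Rik (-0.76), *Ssh2* (-0.76) and 2310003H01Rik (0.75), and for *Adrb3* *Pitpnc1* (-0.72), *Fgd4* (0.71) and *Letm2* (-0.69). *Letm2* lies on the same chromosome as *Adrb3*, 22 protein-coding genes away.

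For *Prkar2a* and *Prkar2b* the most similar genes had a large r with the muscle list as well. *Prkar2a* had *Phkb*, a subunit of phosphorylase kinase (0.83), *Mpp6* (0.78) and *Phtf2* (0.78), which had r of 0.70, 0.64 and 0.84 with the muscle list. *Prkar2b* had *Pfn2* (-0.83), an actin-binding profilin, and *Prkab2*, a subunit of AMP-activated kinase (-0.81), which had r of 0.79 and 0.81 with that list. *Prkaca* had *Gtf3c6* (0.77), *Mtx2* (0.76) and *Bpnt1* (0.75), and *Prkar1a* had *Zfp710* (-0.66), *Suv420h1* (0.62) and D030028A08Rik (-0.60). For the phosphodiesterases the largest values were smaller, 0.65 for *Pde3b* with *Clpx*, -0.64 with *Large* and 0.64 with 1300015D01Rik, and -0.64, -0.62 and -0.60 for *Pde4d* with *Ube2c*, *H2-DMa* and *Tagln2*.

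The genes with the smallest adjusted p against *Ucp1* were *Gyk*, glycerol kinase (r = 0.85), 1300001I01Rik (0.84), *Slmo2* (0.83), *Gys2*, a glycogen synthase (0.81), and *Paqr9* (0.79), with limma adjusted p of 3.62e-07 for *Gyk* and 3.43e-05 for *Paqr9*. Against *Dio2* they were *Cxcr7* (0.75), *Ppargc1a*, *Cpeb1* (-0.74), *Ttc3* (-0.75) and 2610020H08Rik (-0.72), with adjusted p between 0.00308 and 0.00504. No member was among either set.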

How the data were processed

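Affymetrix MoGene 2.0 arrays of BAT were analysed, 1 per strain, with columns assigned to strains by name. The deposited values are scores, since the authors had rescaled the arrays to 1 common mean (8) and standard deviation (2), and all columns have both. Affymetrix Expression Console is named in the submitters' processing notes; the summary method, log base and genome build are not given in the sources used here. Because such a rescaling can stretch the differences on some arrays, quantile normalization and median centring were alternatives. The design had assumed log2 values, and the same tests were run on the scores. Precision is set by the number of arrays and by background.

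Of 41345 probe sets, 190 array controls were left out. Each covariate gene was fitted over the 35 BXD strains with limma 3.58.1 (lmFit, eBayes) in R 4.3.3, without its own probe sets, with Benjamini-Hochberg adjustment over all probe sets and a threshold of 0.05. Pearson's r and Spearman's rho had 100000 permutations (two-sided), unadjusted unless stated, and r was computed again without the 2 strains farthest from the median. Members had 18 relations with readouts and 36 with each other. Permutations and figures were made with numpy 2.4.6, pandas 2.3.3, scipy 1.17.1 and matplotlib 3.10.9 in Python 3.11.15, and the fits were tested on simulated data. p-values measure the spread between strain pools, with no estimate of the error within a strain, and BXD strains share parental segments.

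Members and lists were chosen with earlier results of these data known. Named genes are all members and readouts, listed pathway and cAMP-induced genes that passed (or the 3 largest in r), the 3 genes most similar to each member and the 5 with the smallest adjusted p for each readout. The values of 2 genes that this rule names are not reported here, though the counts include them. Of the listed genes, 4 are in the table under an older symbol. The alternatives are the parents included, the scalings above, marker lists, a clock index and the first principal component as covariates, ranks, dim probe sets left out, other thresholds, the mean of probe sets, an unmoderated Pearson test, and strains left out. Promoter sequences came from RefSeq (GRCm38.p6).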

Additional observations from a re-analysis of the deposited data

How the results depend on the processing

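The 4 members called against *Ucp1* became 0 at an adjusted p of 0.01 and 1 (*Adcy3*) without the 2 strains farthest in *Ucp1*, and between 2 and 4 when each strain was left out, with 2 without BXD83. *Prkar2b* also lost its call under quantile normalization (limma adjusted p = 0.0751) and median centring (0.0524). It was lost as well with the muscle list as covariate (0.094) and without BXD65 and BXD97 (0.0696). In these settings *Adrb1*, *Adrb3* and *Adcy3* kept their calls. Against *Dio2* the count of 0 became 1 (*Adcy3*) with the adipocyte list as covariate. The single called pair became 0 at an adjusted p of 0.01, under quantile normalization, median centring, the muscle list as covariate, without the 2 farthest strains and without BXD65 and BXD97, and 2 at 0.10 or with dim probe sets left out. Leaving out each strain gave 0 to 2 pairs, with 0 without BXD56, BXD79, BXD81 or BXD97 and 2 without BXD95. The 7 pathway genes called against *Ucp1* became 2 at 0.01, 3 under median centring, 4 with the muscle list as covariate, 4 without BXD70, 1 without the 2 farthest strains and 2 without BXD65 and BXD97, the extremes of the muscle list, an omission chosen after the data had been seen. Leaving out each strain gave 2 to 7, with 2 without BXD83 and 4 without BXD51, BXD56, BXD65, BXD70, BXD75, BXD84 or BXD101. The 0 against *Dio2* became 1 at 0.10, with dim probe sets left out and without BXD80. The cause of these moves was not tested.

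Of 600 values of single relations under other settings and 1890 with a strain left out, no relation that had passed changed sign, while 42 values of 13 relations that had not passed did. Over all probe sets the calls ranged from 295 without the 2 farthest strains to 1144 with dim ones left out for *Ucp1*, and from 24 to 362 for *Dio2*. At thresholds of 0.01 and 0.10 they were 192 and 1471 for *Ucp1* and 14 and 480 for *Dio2*.

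The count of members above background was 8 with the 99th percentile as limit, where *Pde4d* dropped out, and between 8 and 9 when each strain was left out. No paired analysis was possible because each strain has 1 array. *Prkaca* and *Dio2* have a second probe set, with r = 0.50 and 0.33 to the first. That of *Dio2* is below background and that of *Prkaca*, with a mean of 9.34, above it. With the mean of probe sets *Prkaca* had r = 0.36 with *Ucp1*, against 0.20 for the brighter probe set, and did not pass (limma adjusted p = 0.269).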

Other observations

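The neighbours of each member in the genome, 20 protein-coding genes to each side, were examined after the members' values had been seen. With the member as covariate none of the 26 to 40 neighbours on the array passed for any of the 9 members. For *Prkar1a*, *Pde3b* and *Pde4d* this could not have come out otherwise, since 0 of 41154 probe sets passed. With *Adrb3* 8 of 41154 passed, and with the other members between 0.338% and 2.11%, so that few neighbours could be called. For *Ucp1*, 3 of 37 passed, next to 1.8% of all probe sets. They were *Gab1*, *Gipc1* and *Ptger1*, the last with r = 0.72 at 11 genes away (limma adjusted p = 0.00214).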
